A study of Homo sapiens with 6 samples.

Results

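The distal microRNA run of the imprinted DLK1-DIO3 domain at 14q32 was examined in lung epithelial cell lines treated with transforming growth factor-β1 (TGF-β1). The miRNAs described were 43 mature miRNAs, from miR-379 to miR-656, of the 2588 mature miRNAs counted in each library. They were selected by name from the 73 mature names of the run in the files, and the list had been drawn up with earlier results of these libraries known. The responses of the members to treatment are therefore given as a description. A549 is a line from a human lung adenocarcinoma, and BEAS-2B is an immortalised line from human bronchial epithelium. Both were labelled WT in genotype. Each line had 1 untreated control library, 1 library after 48 h with TGF-β1 at 1 ng/mL (the low dose) and 1 after 48 h at 5 ng/mL (the high dose), making 6 small RNA libraries from total RNA. Treated cells received the cytokine in low-serum medium. No medium was named separately for the control cells. There were no replicates, so no test of treatment was possible and no p-value is given. The 95% intervals are exact counting intervals, and they do not cover variation between cultures.

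An imprinted domain is one in which a gene is expressed from the copy of only 1 parent. At 14q32 the protein-coding genes DLK1, RTL1 and DIO3 are expressed from the paternal copy, and the noncoding genes MEG3, MEG8 and MEG9 together with the miRNAs from the maternal copy. The miRNA hairpins of the distal run are thought to be cut from long noncoding transcripts. A hairpin yields a 5p and a 3p arm, and the loaded arm recognises target mRNAs mainly through its seed, which is bases 2 to 8. The locus is known for high expression in embryo, placenta, brain and mesenchymal cells. Raised levels of its miRNAs have been described in fibrotic lung. TGF-β1 is the cytokine commonly used to drive epithelial cells toward a mesenchymal, matrix-producing state.

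The run lies at chr14:101022066-101066801 on the plus strand of GRCh38, a stretch of 44.7 kb by the RefSeq annotation. It holds 42 hairpins, of which 32 give rise to the members. In GENCODE 29, 10 of these 32 hairpins lie in introns of MEG8, 5 in introns of MIR381HG, 3 in introns of MEG9 and 1 in an exon of MEG9. The other 13 overlap no other annotated transcript on that strand. The build that the reads were aligned to is not given in the sources used here, so the coordinates describe the reference only.

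The sequences of some of the more abundant members are shown first. They are the RefSeq mature sequences (GRCh38.p14), which were found for all 43 members, with the seed in capitals.
hsa-miR-381-3p: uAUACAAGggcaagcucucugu
hsa-miR-654-3p: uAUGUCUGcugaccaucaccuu
hsa-miR-543: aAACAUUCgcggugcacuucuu
hsa-miR-411-5p: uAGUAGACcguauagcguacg
hsa-miR-134-5p: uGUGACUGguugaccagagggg

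The 43 members had 39 different seeds, so most members had a seed of their own. The seed was shared by 2 members in each of 4 cases. The pair UCAUACA is shown because its members behaved differently in the libraries, and the pair AUGUAAC because the full sequences differ at only 2 of 22 bases.
hsa-miR-539-3p: aUCAUACAaggacaauuucuuu
hsa-miR-485-3p: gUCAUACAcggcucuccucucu
hsa-miR-379-3p: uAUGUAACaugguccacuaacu
hsa-miR-411-3p: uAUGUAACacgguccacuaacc
The other 2 shared seeds were UCAUAGA, in hsa-miR-376a-3p and hsa-miR-376b-3p, and AUCAUAC, in hsa-miR-487a-3p and hsa-miR-154-3p. Some members had a near copy outside the list. hsa-miR-1185-1-3p differed from hsa-miR-1185-2-3p at 1 of 22 bases and hsa-miR-381-3p from hsa-miR-300 at 3 of 22, compared without gaps. hsa-miR-376a-3p differed from hsa-miR-376c-3p at 2 of 21 bases, and its mature sequence is encoded at 2 loci of the run. How reads that fit more than 1 miRNA were counted is not given in the sources used here, so values of these near copies are uncertain.

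The libraries held between 633318 and 900424 counts each. Where a miRNA is at 0, up to 3 counts cannot be told from its absence, which corresponds to 3.33 to 4.74 CPM, the count relative to the library total, in these libraries. Counts were normalised with the trimmed mean of M-values (TMM) over the 6 libraries, with factors from 0.829 to 1.32, the highest in the BEAS-2B control. hsa-miR-21-5p, the most abundant miRNA, took between 260388 and 511881 counts per library and weighs on any scaling by total count. Its share of the counts in the control, low-dose and high-dose library was 35.4%, 53.3% and 57.2% in BEAS-2B. In A549 this share was 53.2%, 56.8% and 47.6% in the same order. Of the epithelial markers, summed counts of the miR-200 family with hsa-miR-205-5p ranged from 219 to 472, while hsa-miR-205-5p itself had at most 2 counts. The 6 blood-cell markers summed to at most 9 counts in a library.

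The summed count of the members was higher in both treated A549 libraries than in the control and differed little between the BEAS-2B libraries. The 43 members summed to 2956 counts in the A549 control, 9379 at the low dose and 9458 at the high dose. In BEAS-2B they summed to 1406 counts in the control, 1179 at the low dose and 1300 at the high dose. As a share of the library, this was 0.374% (exact 95% interval 0.361 to 0.388), 1.04% (1.02 to 1.06) and 1.49% (1.46 to 1.52) in A549. The corresponding BEAS-2B shares were 0.191% (0.181 to 0.201), 0.179% (0.169 to 0.190) and 0.169% (0.160 to 0.179). The 3 A549 shares lay above every BEAS-2B share. In these bulk libraries, fewer cells that express a miRNA and less of it per cell cannot be told apart.

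After TMM normalisation, the sum was 3.58-fold (3.43 to 3.73) higher at the high dose and 3.06-fold (2.94 to 3.19) higher at the low dose than in the A549 control. In BEAS-2B the ratios were 1.18-fold (1.09 to 1.27) at the high dose and 1.26-fold (1.17 to 1.36) at the low dose. The direction in BEAS-2B depended on the scaling, since total-count scaling gave log2 ratios of -0.17 at the high dose and -0.092 at the low dose, against 0.24 and 0.34 with TMM. In A549 the log2 ratio at the high dose was between 1.75 and 2.00 under TMM, DESeq2 size factors, total count and total count without hsa-miR-21-5p. The log2 response of A549 minus that of BEAS-2B at the high dose was 1.60 (1.48 to 1.73, by a normal approximation of counting error), and it ranged from 1.42 to 2.17 over these 4 scalings. At the low dose the difference was 1.28 (1.15 to 1.41), with a range of 1.22 to 1.57. Total-count scaling moved the median log2 ratio of all miRNAs that passed the filter described below to -0.33 in BEAS-2B at the high dose and to -0.37 at the low dose. In A549 the same scaling gave medians of 0.23 and -0.12 in this order, and between the untreated lines -0.32. Leaving hsa-miR-21-5p out of the total gave 0.23 in BEAS-2B at the high dose.

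**Figure D1:**
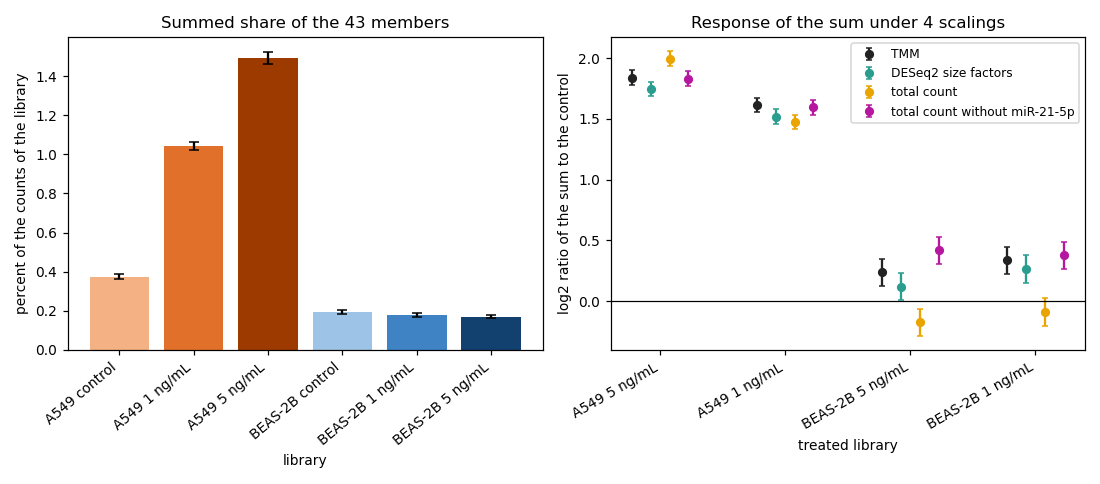
Left, bars give the summed counts of the 43 members as a percent of each library, with exact 95% counting intervals; right, points give the log2 ratio of the sum in each treated library to its control under 4 scalings, with the same intervals. The A549 shares climb from 0.374% to 1.49% while the BEAS-2B shares stay between 0.169% and 0.191%, and only in BEAS-2B does a scaling take the ratio below 0.

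The sum was carried by a few miRNAs. hsa-miR-381-3p had normalised counts of 1455 in the A549 control, 5036 at the low dose and 5751 at the high dose, and of 367, 486 and 485 in BEAS-2B in the same order. It made up 47.3% to 53.5% of the sum in A549 and 33.9% to 38.1% in BEAS-2B. Its log2 ratio to the control at the high dose was 1.98 (1.90 to 2.07) in A549 and 0.40 (0.22 to 0.59) in BEAS-2B, and total-count scaling took the BEAS-2B value to -0.01. hsa-miR-654-3p came next in A549, with raw counts of 301, 1111 and 1137, against 118, 150 and 102 in BEAS-2B. At the low dose it was the member with the clearest difference in BEAS-2B, with a log2 ratio of 0.93 (0.58 to 1.30), but at the high dose the ratio was 0.14 (-0.26 to 0.53).

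Members were counted as past the fold where the normalised count differed by at least 1.4-fold, the criterion of the study, after adding a pseudocount of 1. A filter required a mean normalised count of at least 10 over the 6 libraries. It was passed by 26 of the 43 members and by 397 of all miRNAs. The other 17 members did not pass. The members nearest the filter were hsa-miR-382-3p and hsa-miR-485-3p inside, with means of 17.0 and 19.8, and hsa-miR-655-3p and hsa-miR-656-3p outside, with means of 6.85 and 7.55. Because A549 held the higher counts, members could pass through the A549 libraries, and the counts below are no support for a higher level there.

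In A549 at the high dose, 22 of the 26 members were at least 1.4-fold higher than in the control and 0 were lower. Of all miRNAs that passed the filter, 35.3% were higher and 25.4% lower. The median log2 ratio was 1.55 over the members and 0.08 over all miRNAs. At the low dose, 22 members were higher and 0 lower, against 28.5% and 18.9% of all miRNAs. The median was 1.34 over the members and 0.02 over all miRNAs. Both doses were compared with the same control library, so they are not separate evidence. The study also required a normalised data value of at least 8. This was read here as log2 of the normalised count plus 1, in the greater of the 2 libraries, since neither the formula nor the library was given. With it, 7 members remained at each dose and 7 of 7 were higher. The background with this requirement was 27% higher and 26.2% lower at the high dose, and 27% higher and 21.9% lower at the low dose.

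In BEAS-2B at the high dose, 4 members were at least 1.4-fold higher and 5 lower, against 24.7% and 17.1% of all miRNAs. The median was -0.03 over the members and 0.05 over all miRNAs. At the low dose, 7 were higher and 2 lower, against 22.7% and 17.6%, with medians of 0.12 and 0.04. As shares of the 26 members these were 15.4% higher and 19.2% lower at the high dose, and 26.9% and 7.69% at the low dose. Total-count scaling turned the balance, with 3 members higher and 11 lower at the high dose, against 10.6% and 40.6% of all miRNAs under that scaling. At the low dose it gave 3 higher and 7 lower, against 9.82% and 41.1%. With the data value of at least 8, 2 members remained at the high dose and 0 of them were past 1.4-fold in either direction, against 20% of all miRNAs higher and 16% lower. Counting intervals of the log2 ratio excluded 0 for 20 of 26 members in A549 at the high dose and for 2 of 26 in BEAS-2B at that dose, in each case on the higher side. Of all miRNAs that passed the filter, the interval lay above 0 for 32.5% and below 0 for 27.2% in A549, and above 0 for 25.9% and below 0 for 22.2% in BEAS-2B.

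**Figure D2:**
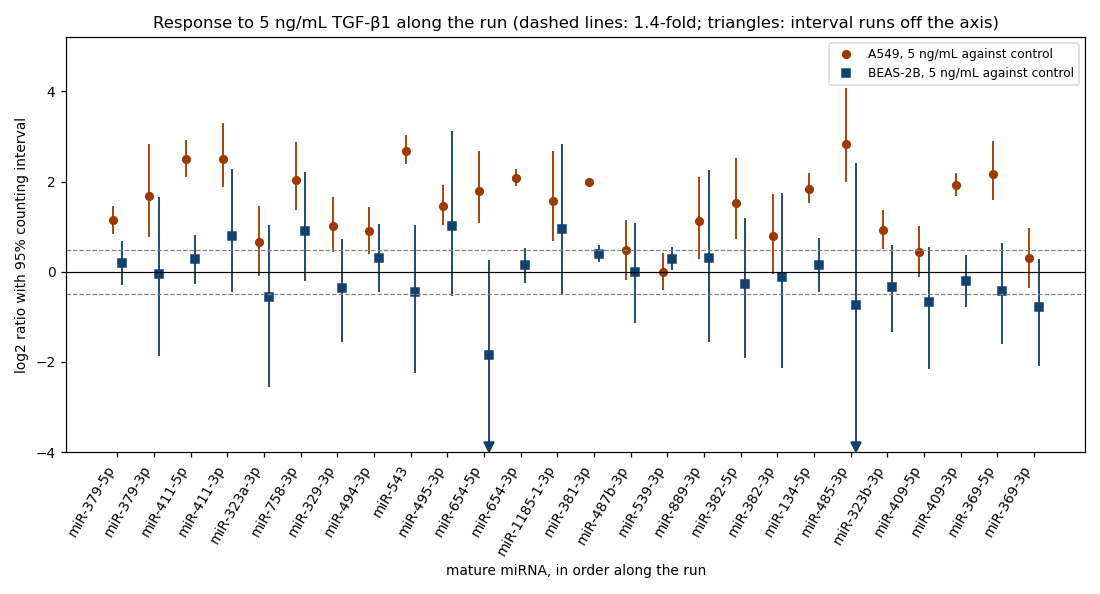
Log2 ratio of 5 ng/mL TGF-β1 to control for the 26 members that passed the filter, in order along the run, for A549 (circles) and BEAS-2B (squares). Vertical lines are 95% counting intervals (computed without the pseudocount), triangles mark intervals that run off the axis and dashed lines mark 1.4-fold; A549 values range from 0.00 to 2.83 and BEAS-2B values from -1.85 to 1.02.

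At the start of the run, in introns of MEG8, lie the miR-379 and miR-411 hairpins, whose 5p arms are related but have different seeds. hsa-miR-379-5p had raw counts of 131 in the A549 control, 303 at the low dose and 260 at the high dose, against 78, 60 and 70 in BEAS-2B, which is a log2 ratio at the high dose of 1.14 (0.84 to 1.46) in A549 and 0.19 (-0.29 to 0.68) in BEAS-2B. hsa-miR-411-5p had normalised counts of 62.4, 278 and 355 in A549 against 46.2, 68.3 and 55.9 in BEAS-2B. Between the untreated lines the counting interval for hsa-miR-411-5p included 0, with a log2 difference of 0.43 (-0.10 to 0.98), and after the high dose the A549 response exceeded that of BEAS-2B by 2.23 (1.57 to 2.89). The hsa-miR-411-3p arm went with its partner in A549, with normalised counts of 21.9, 107 and 128, and had 6.92, 13.9 and 12.7 in BEAS-2B. The log2 ratio of the high dose to the control in A549 was 2.49 (2.10 to 2.93) for the 5p arm, and that of the 3p arm had the interval 1.87 to 3.30.

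Further along, hsa-miR-758-3p had normalised counts of 20.8, 88.4 and 88.4 in A549 against 8.46, 18.5 and 16.7 in BEAS-2B. Both treated libraries were above the control in each line, but the BEAS-2B interval at the high dose included 0, at 0.90 (-0.20 to 2.22). hsa-miR-329-3p had 38.5, 55.2 and 79.1 in A549 against 15.4, 13.9 and 11.8 in BEAS-2B. hsa-miR-494-3p had 54.1, 75.3 and 101 in A549 against 25.4, 26.6 and 31.4 in BEAS-2B. Their log2 ratios in A549 at the high dose were 1.02 (0.44 to 1.66) and 0.89 (0.39 to 1.43), which is below the median of the members.

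hsa-miR-543 and hsa-miR-495-3p differed most between the untreated lines among the 26 members. hsa-miR-543 had normalised counts of 98.9 in the A549 control, 396 at the low dose and 640.1 at the high dose, against 8.46, 8.10 and 5.88 in BEAS-2B. Untreated A549 exceeded untreated BEAS-2B by 3.40 (2.64 to 4.60) on the log2 scale, and A549 at the high dose exceeded its control by 2.68 (2.38 to 3.02). The 5 ng/mL library also exceeded the 1 ng/mL library, by 0.69 (0.50 to 0.88). hsa-miR-543 made up 3.21%, 4.20% and 5.82% of the summed count in A549 and between 0.462% and 0.782% in BEAS-2B. hsa-miR-495-3p differs from hsa-miR-543 at 4 of 22 bases and has another seed. It had normalised counts of 63.5, 213 and 176 in A549 against 3.85, 4.63 and 8.82 in BEAS-2B, so its level in A549 was not higher at the high than at the low dose.

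The MIR381HG introns hold the most abundant member, hsa-miR-381-3p, and 1 member that went against its neighbours. hsa-miR-539-3p had normalised counts of 109, 91.4 and 109 in A549 against 212, 230.4 and 260 in BEAS-2B. It was the 1 member of the 26 that was at least 1.4-fold lower in untreated A549 than in untreated BEAS-2B, by -0.95 (-1.30 to -0.63) on the log2 scale. Its A549 ratio at the high dose was 0.00 (-0.42 to 0.42), while its neighbour hsa-miR-381-3p, in the same host gene, was higher by 1.98. It made up 16.9% to 20.4% of the summed count in BEAS-2B but 0.970% to 3.55% in A549. hsa-miR-487b-3p, from the same introns, had normalised counts of 37.5, 48.2 and 52.4 in A549 against 13.8, 12.7 and 13.7 in BEAS-2B. Its A549 interval at the high dose included 0, at 0.47 (-0.18 to 1.16).

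The seed partner of hsa-miR-539-3p, hsa-miR-485-3p, was scarce in BEAS-2B and higher in treated than in control A549. Its raw counts were 10, 25 and 69 in A549 against 3, 0 and 1 in BEAS-2B. The A549 ratio at the high dose, 2.83 (1.98 to 4.07), was the highest among the 26 members, and 5 ng/mL exceeded 1 ng/mL by 1.64 (1.00 to 2.40). hsa-miR-539-3p has 27.3% GC and hsa-miR-485-3p 54.5%, and A549 ratios at the high dose went with GC content, as given below. The part of GC content in the difference between these 2 miRNAs was not tested. Summed over both miRNAs, the seed UCAUACA had 115, 116 and 163 counts in A549 against 279, 199 and 266 in BEAS-2B. The seed AUGUAAC of hsa-miR-379-3p and hsa-miR-411-3p had 33, 154 and 146 in A549 against 17, 20 and 19 in BEAS-2B. The first seed had more counts in each BEAS-2B library than in any A549 library, and the second had fewer.

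In the stretch with no annotated host lie hsa-miR-134-5p, known from the control of dendritic spine size in neurons, and hsa-miR-323b-3p. hsa-miR-134-5p had normalised counts of 106, 308 and 382 in A549 against 41.5, 45.2 and 46.1 in BEAS-2B. hsa-miR-323b-3p had 77.0, 124 and 147 in A549 against 20.0, 18.5 and 15.7 in BEAS-2B. The A549 values were in the same order for both, but the log2 ratio at the high dose was 1.84 (1.52 to 2.18) for hsa-miR-134-5p and 0.92 (0.50 to 1.36) for hsa-miR-323b-3p. The less abundant members that passed the filter, hsa-miR-379-3p, hsa-miR-323a-3p, hsa-miR-654-5p, hsa-miR-1185-1-3p, hsa-miR-889-3p and both miR-382 arms, had A549 ratios from 0.65 to 1.79 at the high dose.

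**Figure D3:**
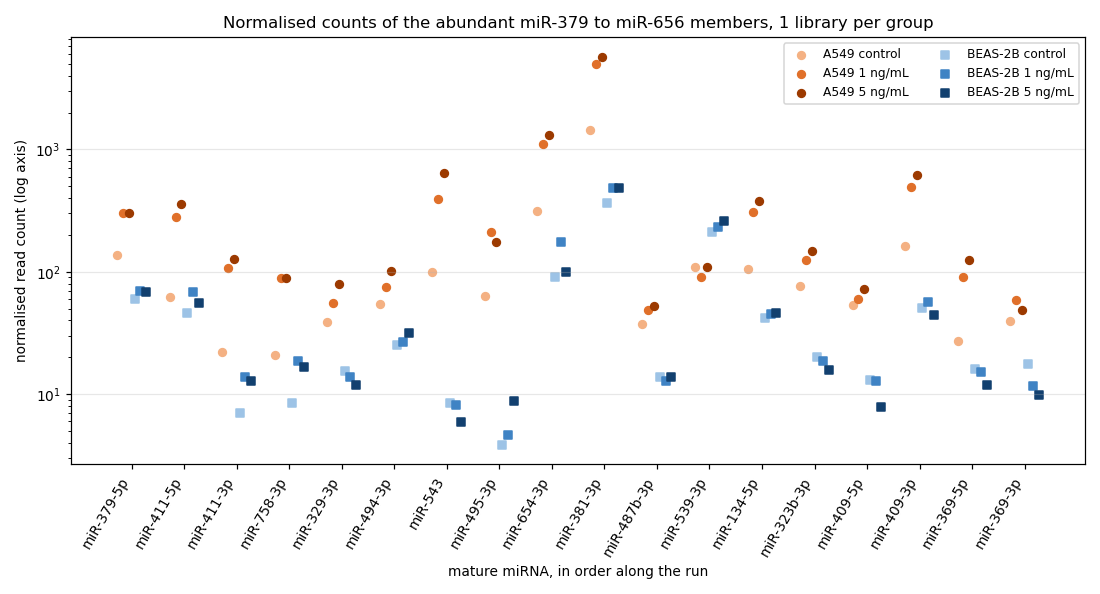
Normalised read count (log axis) of the 18 members with a mean of at least 25, in order along the run, with 1 point per library: circles for A549 and squares for BEAS-2B, darker with dose. hsa-miR-539-3p is the member where the BEAS-2B points, from 212 to 260, lie above the A549 points, from 91.4 to 109.

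The hairpins miR-409 and miR-369 are neighbours in introns of MEG9. Among 6 hairpins compared, they were the ones whose counting interval for the arm change in A549 excluded 0. The balance of the arms within a library does not depend on how libraries are scaled. Scaling does not remove a trend with GC content, however, which the log2 ratios in A549 showed at the high dose. The Pearson correlation was 0.45 over the 26 members and 0.28 over 325 other miRNAs. The 5p and 3p arms had 47.8% and 54.5% GC in miR-409, and 45.5% and 23.8% in miR-369. In both, the arm with more GC gained share, and the part of GC content in this was not tested. The 4 arms are shown with their seeds in capitals.
hsa-miR-409-5p: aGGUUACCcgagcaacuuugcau
hsa-miR-409-3p: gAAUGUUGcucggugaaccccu
hsa-miR-369-5p: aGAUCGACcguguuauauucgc
hsa-miR-369-3p: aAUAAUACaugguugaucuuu
Of miR-409, the 5p arm had 51, 60 and 62 raw counts in A549 and the 3p arm 156, 491 and 532. The 3p share was 75.4% (68.9 to 81.1) in the control, 89.1% (86.2 to 91.6) at the low dose and 89.6% (86.8 to 91.9) at the high dose. The log2 change of the 3p to 5p ratio at the high dose was 1.49 (0.86 to 2.11). Of miR-369, the 5p arm had 26, 91 and 108 raw counts in A549 and the 3p arm 38, 59 and 42. The 3p share was 59.4% (46.4 to 71.5) in the control, 39.3% (31.5 to 47.6) at the low dose and 28.0% (21.0 to 35.9) at the high dose. Its 3p to 5p ratio changed by -1.91 (-2.86 to -0.96) at the high dose and by -1.17 (-2.10 to -0.25) at the low dose. In A549 the favoured arm therefore moved toward 3p in miR-409 and toward 5p in miR-369. hsa-miR-369-3p is known as a miRNA that binds AU-rich elements of cytokine mRNAs.

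In BEAS-2B the arm counts were lower. The 3p share of miR-409 was 79.5%, 81.7% and 84.9% and that of miR-369 was 52.3%, 43.5% and 45.5%, and the intervals of both changes at both doses included 0. For miR-379, miR-411, miR-654 and miR-382 the interval of the change in A549 included 0 at both doses. These intervals were wide, such as -2.06 to 0.52 for miR-382 at the high dose and -0.12 to 1.62 for miR-654 at the low dose. They do not show that the arms changed equally. The miR-379 hairpin gave mostly its 5p arm, with a 3p share from 7.89% to 13.4%, and miR-654 mostly its 3p arm, with 93.7% to 99.0%. Of the 11 hairpins with both arms among the members, 5 had at least 5 counts of each arm in all 6 libraries.

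**Figure D4:**
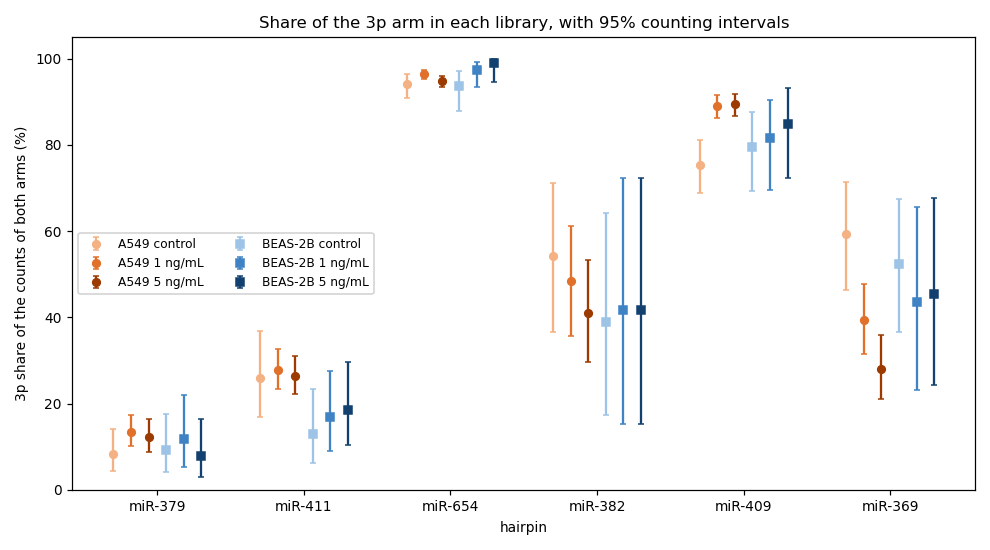
Share of the 3p arm in the counts of both arms, in percent, for 6 hairpins in each of the 6 libraries, with exact 95% counting intervals. In A549 the miR-409 share lies at 75.4% in the control and at 89.1% and 89.6% after treatment, and the miR-369 share falls from 59.4% to 39.3% and 28.0%.

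Between the doses in A549, 5 members were at least 1.4-fold higher at the high than at the low dose and 0 lower, against 17.6% and 14.4% of all miRNAs. Under total-count scaling 16 were higher and 0 lower, against 34.3% and 5.04%. The 5 under TMM were hsa-miR-329-3p, hsa-miR-543, hsa-miR-654-5p, hsa-miR-382-5p and hsa-miR-485-3p. The sum differed by 0.23 (0.18 to 0.27) on the log2 scale, or 1.17-fold, and by 0.52 under total-count scaling. In this comparison the log2 ratio went with the GC content of the mature sequence, with a Spearman correlation of 0.50 and a Pearson correlation of 0.53 over the 26 members and 0.37 and 0.36 over 325 other miRNAs. All points come from the same 2 libraries. With the GC trend removed, the log2 ratio of the sum was 0.22. The high dose against the control in A549 also had such a trend, with Spearman and Pearson correlations of 0.34 and 0.45 over the members. Over the other miRNAs they were 0.25 and 0.28, and removing the trend took the sum from 1.84 to 1.68. At the low dose against the control the correlations over the members were 0.06 and 0.19. In BEAS-2B, 2 members were higher at the high than at the low dose and 5 lower, against 13.4% and 9.32% of all miRNAs.

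Between the untreated lines, 24 of the 26 members were at least 1.4-fold higher in A549 and 1 lower, against 39.8% and 28.2% of all miRNAs. The member that was lower was hsa-miR-539-3p, and the remaining one was hsa-miR-411-5p. The sum was 2.84-fold (2.67 to 3.03) higher in A549, a log2 difference of 1.51, with a value of 0.97 under total-count scaling. The median log2 difference was 1.45 over the members and 0.21 over all miRNAs.

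The 17 members under the filter included the miR-376, miR-377 and miR-154 arms, hsa-miR-410-3p and hsa-miR-656-3p. Together they had 60 counts in the A549 control, 146 at the low dose and 89 at the high dose, and 24, 20 and 29 in BEAS-2B. The highest count of any of them was 23, and 2 to 7 of them stood at 0 in the A549 control and the BEAS-2B libraries. Their sum in A549 was higher by 1.23 (0.79 to 1.69) at the low dose and by 0.73 (0.24 to 1.23) at the high dose, so for them the low dose gave the higher value. In BEAS-2B the intervals included 0 at both doses. With no filter, 35 of the 43 members were past 1.4-fold higher at the low dose and 32 at the high dose in A549, with 0 and 3 lower. Of the 1556 miRNAs with a count in any library, 28.9% were higher and 21.6% lower at the low dose, and 30.1% higher and 25.2% lower at the high dose.

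The 30 other mature names of the run, mostly minor arms, summed to 26, 54 and 74 counts in A549 against 30, 24 and 35 in BEAS-2B. Only hsa-miR-544a among them passed the filter. It had 6, 5 and 8 counts in A549 against 20, 16 and 18 in BEAS-2B, and so was higher in BEAS-2B, as hsa-miR-539-3p was. Its gene lies in the same part of the run.

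Upstream in the same domain, the miRNAs from miR-493 to miR-370 formed the closest comparison. These 17 mature names lie at chr14:100869060-100911207 (GRCh38) and summed to 1305, 3861 and 4032 counts in A549 against 653, 461 and 497 in BEAS-2B. In A549 at the high dose their sum was higher by 1.79 (1.70 to 1.88) on the log2 scale, against 1.84 (1.78 to 1.90) for the members. In BEAS-2B the value was -0.04 (-0.22 to 0.13). Of the 9 that passed the filter, 8 were at least 1.4-fold higher in A549 at the high dose and 0 lower. hsa-miR-127-3p, the most abundant of them, had 720, 2022 and 2041 counts in A549 against 241, 180 and 222 in BEAS-2B. The A549 intervals of the upstream and the distal sums overlap.

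Hairpins on 1 strand with neighbours within 10 kb were joined into genomic clusters, and 17 clusters with at least 3 hairpins and a mean summed normalised count of at least 100 were compared. In A549 the distal run, here with every mature name in it, had the highest ratio at both doses. The upstream cluster followed at the high dose with 1.79. By the 10 kb rule it ran from MIR493 to MIR136, with 15 mature names, and so left out miR-370. The next was the cluster from MIR99B to MIR125A with 0.90. The lowest was the cluster from MIR192 to MIR6749 with -1.05. In BEAS-2B the distal run stood at rank 5 of 17 at both doses, with 0.24 at the high and 0.33 at the low dose. Between untreated lines it stood at rank 3.

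**Figure D5:**
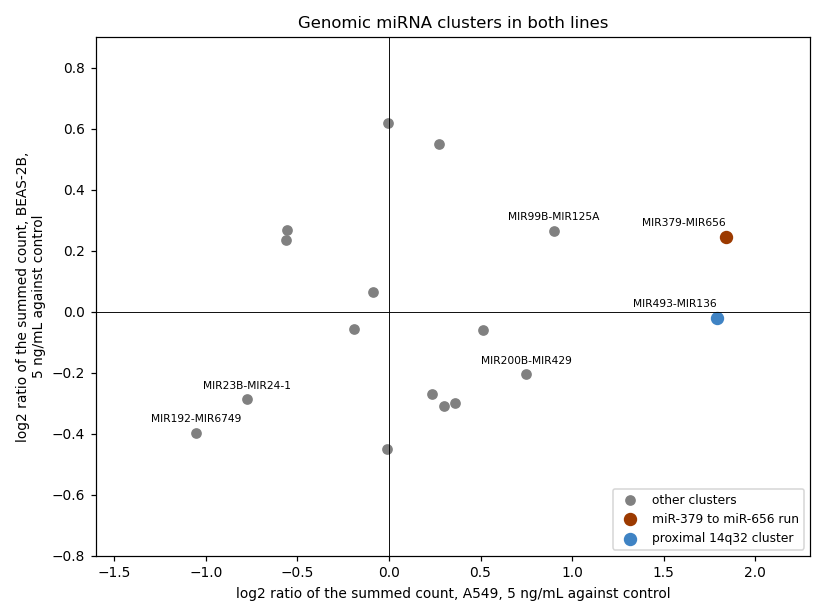
Each point is 1 of 17 genomic miRNA clusters; the axes give the log2 ratio of its summed count at the high dose of TGF-β1 to that in the control in A549 (horizontal) and in BEAS-2B (vertical). The distal run at 1.84 and the upstream 14q32 cluster (MIR493 to MIR136) at 1.79 stand apart in A549. Their BEAS-2B values are 0.24 and -0.02.

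The sum of the stromal markers was higher after treatment in both lines, through the miR-143 and miR-145 arms. The 9 stromal markers summed to 158, 1761 and 1190 counts in A549 against 16, 79 and 115 in BEAS-2B, with log2 ratios at the high dose of 3.07 (2.83 to 3.32) and 3.20 (2.43 to 4.05). In every library but the BEAS-2B control most of these counts were hsa-miR-143-3p, at 148, 1658 and 1106 in A549 against 7, 62 and 101 in BEAS-2B. The arms of the fibroblast markers miR-199 and miR-214 summed to 4, 3 and 2 counts in A549 against 9, 6 and 5 in BEAS-2B. The sum of the epithelial markers was also higher in treated A549, by 1.52-fold (1.27 to 1.81) at the high and 1.69-fold (1.43 to 2.01) at the low dose. In BEAS-2B the ratios were 0.896 (0.777 to 1.03) and 0.947 (0.816 to 1.10). Most of this sum in A549 was hsa-miR-200b-3p, at 139, 271 and 204 counts. hsa-miR-429 had 8, 22 and 19 there, hsa-miR-200a-3p 34, 44 and 38, and hsa-miR-200c-3p 36, 38 and 35. The part of other cells in the response of the run was not tested.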

How the data were processed

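A small RNA library was made for each of 6 cultures (A549 or BEAS-2B; TGF-β1 for 48 h at 0, 1 or 5 ng/mL) with the NEBNext Multiplex Small RNA kit per the labels. Each deposited file gives whole-number read counts by mature miRNA, left unnormalised by the authors. The submitters' processing notes name Bowtie2 and bedtools; versions, genome build, miRNA release, strand handling and molecular identifiers are not given in the sources used here, so reads may not be independent molecules. Here, counts were divided by TMM effective library sizes (edgeR 4.0.16, R 4.3.3) and multiplied by their mean, 749498. Log2 ratios used a pseudocount of 1 for single miRNAs and none for sums. Intervals were exact Clopper-Pearson intervals of the conditional binomial share. Differences between lines given with an interval used a normal approximation of counting error and no pseudocount. The ratios and their exact intervals were tested on simulated counts with counting error alone. That test cannot show whether the intervals hold for dependent reads or between cultures. Members, marker lists and rules were chosen with earlier results of these data known. Counts per library are given for members with a mean normalised count of at least 25, and for those singled out after their values were seen. Alternatives were DESeq2 1.42.0 size factors, total counts, other filters, folds and pseudocounts. No replicates existed.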

Additional observations from a re-analysis of the deposited data

Results flagged for a closer look

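Of the 26 members that passed the filter, 10 were higher than the control in both treated A549 libraries and lower in both treated BEAS-2B libraries. Among all 397 miRNAs that passed the filter, 24.4% had opposite signs of this kind in either order, against 38.5% of the members. Under total-count scaling these shares were 24.7% and 65.4%, or 17 of the 26 members. Members could pass the filter through the A549 libraries and were listed with earlier results known. The shares are therefore no support for an excess of opposite signs among the members. The difference between the lines was not tested, since there was 1 library per group, and both doses of a line share a control. Of the 10, 8 kept opposite signs under each of DESeq2 size factors, total count and total count without miR-21-5p, while miR-487b-3p and miR-409-5p did so under 2 of these 3.

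The log2 response of A549 minus that of BEAS-2B at 5 ng/mL was 3.65 for miR-654-5p, 3.57 for miR-485-3p, 3.14 for miR-543 and 2.60 for miR-369-5p. It was 1.80 for miR-382-5p, 1.38 for miR-329-3p, 1.25 for miR-323b-3p and 1.11 for miR-409-5p. For miR-369-3p it was 1.09 and for miR-487b-3p 0.48. These 10 values used the pseudocount of 1, unlike the differences between lines given with an interval. Without it and under TMM, the normal-approximation interval included 0 for miR-487b-3p (-0.69 to 1.69), miR-409-5p (-0.14 to 2.51) and miR-369-3p (-0.09 to 2.40). For the remaining members of the 10 it lay above 0. The counts behind the BEAS-2B side were low, with 1 count of miR-654-5p and 1 of miR-485-3p at 5 ng/mL. In BEAS-2B the counting interval of each of these 10 responses at 5 ng/mL included 0.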

How the results depend on the processing

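No paired analysis was possible because each group held a single library, which also leaves no replicate to omit. No value past 1.4-fold changed sign under the alternatives computed for it. Single members were recomputed only with DESeq2 size factors, total count and total count without miR-21-5p, and not between doses. The log2 ratio of the sum in A549 at 5 ng/mL, 1.84, became 1.75 with DESeq2 size factors, 2.00 with total-count scaling, 1.77 with TMM within each line, 1.70 without miR-381-3p and 1.68 with the GC trend removed. At 1 ng/mL, 1.61 became 1.52, 1.48, 1.55, 1.43 and 1.46 in the same order. In BEAS-2B at 5 ng/mL, 0.24 became 0.12 with DESeq2 size factors, -0.17 with total-count scaling and 0.42 with total count without miR-21-5p. In BEAS-2B at 1 ng/mL, total-count scaling gave -0.092. Between doses it gave 0.52 in A549, and total count without miR-21-5p gave 0.041 in BEAS-2B. Between untreated lines, 1.51 became 0.97 with total-count scaling, 1.18 without miR-381-3p, 1.77 without miR-539-3p and 1.21 with the GC trend removed. The GC trend and the sum without miR-539-3p were chosen after seeing the data.

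Counts of members past 1.4-fold depended most on the filter. The share of all miRNAs was computed for only some of these alternatives and is given above where it was. The counts here show how the main counts depend on the rules, and they are no results about the members. With a mean of at least 100, 7 members were higher in A549 at 5 and 7 at 1 ng/mL, and 6 between untreated lines. Only hsa-miR-379-5p, hsa-miR-411-5p, hsa-miR-543, hsa-miR-654-3p, hsa-miR-381-3p, hsa-miR-539-3p, hsa-miR-134-5p and hsa-miR-409-3p had such a mean. All of these but hsa-miR-539-3p were higher in A549 at both doses. In BEAS-2B that filter left 0 higher and 0 lower at 5 ng/mL and 2 higher and 0 lower at 1 ng/mL. Between doses it left 1 higher in A549, and 0 higher and 1 lower in BEAS-2B. With no filter, 3 were lower in A549 at 5 ng/mL and 35 higher at 1 ng/mL. In BEAS-2B 12 were then higher and 8 lower at 5 ng/mL, and 5 lower at 1 ng/mL. Between doses 11 were higher and 9 lower in A549, and 9 higher and 9 lower in BEAS-2B. Requiring the counting interval to lie beyond 1.4-fold left 14 higher in A549 at 1 ng/mL, 14 higher between untreated lines and 2 higher between doses in A549. It left 0 in either direction in BEAS-2B at 5 ng/mL, 1 higher and 0 lower at 1 ng/mL, and 0 in either direction between doses. With the data value of at least 8, 7 were higher in A549 at each dose and 1 between doses, 0 in BEAS-2B in any direction or comparison, and 2 higher and 0 lower between untreated lines. A pseudocount of 10 left 1 higher and 1 lower in BEAS-2B at 5 ng/mL, 3 higher and 0 lower at 1 ng/mL, 3 higher between doses in A549, and 0 higher and 2 lower between doses in BEAS-2B. A fold of 2 left 1 higher and 1 lower in BEAS-2B at each dose, 1 higher between doses in A549, 0 higher and 2 lower between doses in BEAS-2B, and 0 lower between untreated lines. Total-count scaling gave 11 lower in BEAS-2B at 5 ng/mL, 3 higher and 7 lower at 1 ng/mL, and 16 higher between doses in A549. Where a filter or a stricter fold lowered a count, fewer members could pass by construction. For the scalings the cause was not tested. The other 126 planned and 24 added values of these results stayed within the counting interval or within 1.5 times the main count. Of the values of single members under other scalings, 374 stayed within the counting interval and 16 moved, most of them under total-count scaling. Low counts limit the BEAS-2B members most.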
